A study of Mus musculus with 617 samples.

Results

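The genes described here are 8 regulators of the G1 phase: the D-type cyclins Ccnd1, Ccnd2 and Ccnd3, the E-type cyclins Ccne1 and Ccne2, and the cyclin-dependent kinase (CDK) inhibitors Cdkn1a (p21), Cdkn1b (p27) and Cdkn2a (p16 and p19ARF). They were chosen by symbol, and all 8 of the 8 had a row among the 43628 Ensembl genes of each of the 4 deposited tables. RNA of 617 single mouse cells had been sequenced as SMART-seq2 libraries made with Tn5, and each value is in fragments per kilobase of transcript, scaled to the library's fragments (FPKM). A female and a male embryonic stem (ES) cell line, both of the strain given as male CAST/EiJ x female C57BL/6J, were sampled in 4 states. Of the ES cells, 60 female and 51 male ones grew in 2i with LIF, and 68 and 52 in serum with LIF. The other states were epiblast stem cells in Activin A and FGF2 (Epi, 79 female and 63 male) and cells taken through embryoid bodies with retinoic acid and the smoothened agonist SAG (motor neuron, 39 female and 35 male). Interneurons also arise in the last protocol, per the labels. Another female Epi culture, at 7 passages, gave 41 cells. From embryos of the same cross, with no labelled sex, came 23 cells of the inner cell mass (ICM, E3.5) and 23 of the epiblast (E4.5). The E5.5 epiblast, of a C57BL/6J x C57BL/6J mating, gave 20 female and 63 male cells.

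In G1, D-type cyclins activate CDK4 and CDK6, and E-type cyclins activate CDK2. These kinases phosphorylate the retinoblastoma family of pocket proteins, which frees E2F factors to switch on genes of DNA replication. The p21 and p27 proteins bind and restrain CDK2 complexes, p16 blocks CDK4 and CDK6, and p19ARF stabilises p53, which in turn activates Cdkn1a. Mouse ES cells are known for a short G1 phase, and neurons leave the cycle when they differentiate.

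Cells of 1 culture share their source, so each culture or embryo stage counted as 1 sample. Each state had 2 samples, 1 per line, and line and sex cannot be told apart. The spread between these samples is that between lines, and the labels name no repeat cultures of a line. Counts were not analysed here, so the depth per cell is unknown. A median cell had from 8122 (E3.5) to 10840 genes (female E5.5) at 1 FPKM or above. The median FPKM sum per cell was 1332433 and 1478624 in the female and male motor neuron cultures, against 862527 and 922930 in serum. It was lowest at E3.5 (612768) and E4.5 (511794), and stood at 1027092 and 995182 in female and male E5.5 cells. Group means given below are not corrected for these sums. In E3.5 ICM, 1 cell had an FPKM sum of 7897578, with the next highest cell at 1143190.

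Cell type markers were compared with the labels. All 6 of 6 neuronal markers averaged at least 1 FPKM in both motor neuron cultures, but Isl1, a motor neuron factor, reached 1 FPKM in 43.6% of the female and 62.9% of the male cells. The summed neuronal markers of the median cell stood at 139.6 (female) and 1001 FPKM (male), against 142.1 and 116.6 FPKM in serum. All 5 of 5 endoderm markers also averaged at least 1 FPKM there, and Sox17 reached 1 FPKM in 48.7% and 91.4% of the cells. The female Epi culture held Nanog at 84.5 FPKM and Fgf5, a marker of the primed state, at 14.1 FPKM. The male Epi culture held them at 12.9 and 144.9 FPKM. The female culture labelled Epi thus had less of this primed marker and more Nanog. All other listed pluripotency markers were also higher in the female culture, among them Zfp42 (72.5 against 0.0687 FPKM) and Esrrb (19.9 against 0.243 FPKM). Of the other primed markers, Otx2 and T were also lower in the female culture (30.8 against 172.7 FPKM and 2.199 against 153.8 FPKM). Dnmt3b (112.3 against 63.2 FPKM) and Pou3f1 (3.39 against 0.999 FPKM) were higher there. In male Epi, 4 of 5 endoderm markers averaged at least 1 FPKM, against 2 in female Epi. Gata4 reached 1 FPKM in 85.7% of the male and 13.9% of the female Epi cells. Cells labelled E3.5 ICM and E4.5 epiblast also held trophoblast and endoderm markers. At E4.5, 5 of 5 trophoblast markers averaged at least 1 FPKM, with Cdx2 and Gata3 at that level in 86.96% of the cells each, and the endoderm marker Gata6 reached it in 82.6%. At E3.5, 4 of 5 did, Gata3 averaged 66.1 FPKM, and Gata6 reached 1 FPKM in 95.7% of the cells. Pou5f1 and Nanog reached 1 FPKM in 100% of the cells of both stages, and of both E5.5 groups. In E5.5 epiblast, the summed level of 8 decidua markers had a median of 39.6 FPKM per cell in females and 3.21 FPKM in males. At that stage, 5 of 5 trophoblast markers averaged at least 1 FPKM in both sexes. Of 5 endoderm markers, 4 in females and 3 in males did. Cdx2 reached 1 FPKM in 70% of female and 31.75% of male cells, and Gata6 in 20% and 23.8%. Sox17 did in 100% and 65.1%. The part of these other cells in the results below was not tested.

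Ccnd3 was the most abundant D-type cyclin transcript in all 13 groups. Its mean FPKM was 236.1 ± 91.5 (SD over 60 cells) in female and 255 ± 64.5 in male 2i cells, and 225.7 ± 181.8 and 216.5 ± 133.8 in serum. It was 187.4 ± 183.2 and 166.8 ± 134.6 in female and male Epi, and 173.2 ± 164.6 and 245.5 ± 201.2 in female and male motor neuron cells. In the order of the states, 2i (245.7 FPKM) stood apart from serum (221.1), while serum, motor neuron (209.4) and Epi (177.1) overlapped in turn. The E5.5 epiblast stood at 264.4 (female) and 208.1 FPKM (male) and the 7-passage Epi culture at 223.9 FPKM, in other tables. The lowest means were 138.1 ± 69.8 FPKM at E3.5 and 68.1 ± 51.6 FPKM at E4.5, the groups with the lowest median FPKM sums. At least 95.7% of the cells of every group had Ccnd3 at 1 FPKM or more. No state comparison passed the test for Ccnd3, with log2 changes of -0.15 (serum against 2i, SE 0.21), -0.32 (Epi against serum, SE 0.21) and -0.10 (motor neuron against serum, SE 0.21). The limma adjusted p was 0.955, 0.733 and 0.742. With upper-quartile scaling the last change was -1.25 and passed (adjusted p = 0.0256). Ccnd3 lies at chr17:47505051-47599691 (GRCm38, plus strand) and overlaps Bysl, whose mean lay between 13.2 and 57.8 FPKM.

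**Figure D1:**
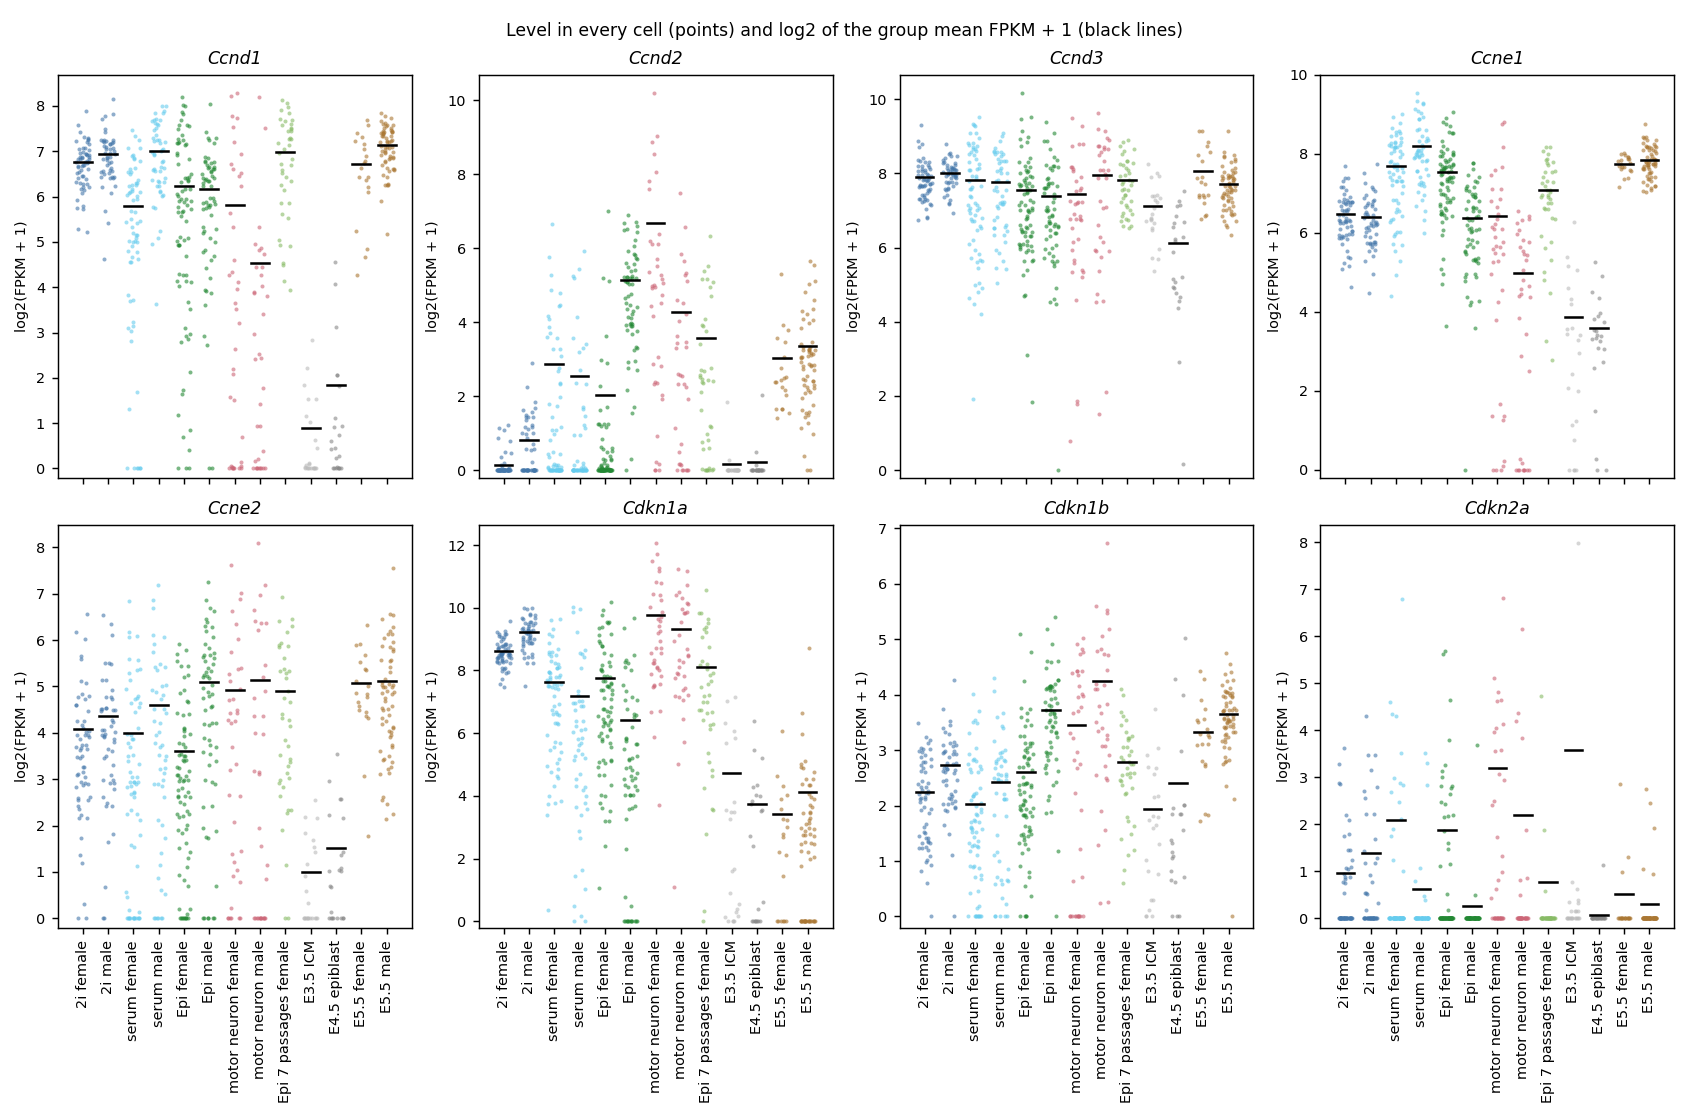
Level of each gene in every cell, as log2(FPKM + 1), in the 13 groups. Each point is 1 cell, and a black line marks the log2 of the group mean FPKM + 1. Ccnd3 is high in all groups, Ccnd1 and Ccne2 are near 0 in many E3.5 and E4.5 cells, and Cdkn2a is at 0 in most cells.

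By mean FPKM, Ccnd1 stood between Ccnd3 and Ccnd2 in all 2i, serum and Epi cultures, and it averaged under 3 FPKM in the blastocyst. Mean Ccnd1 in 2i was 107.1 ± 36.5 (female) and 121.7 ± 46.7 FPKM (male). It was 54.01 ± 43.8 and 127.04 ± 62.8 FPKM in female and male serum cells, and 74.8 ± 72.6 and 70.7 ± 48.2 FPKM in Epi. The motor neuron cultures stood at 55.6 ± 84.8 (female) and 22.1 ± 56.1 FPKM (male). Their medians were 11.6 and 4.38 FPKM, so a few cells carried much of the mean: 1 male cell at 290.2 FPKM held 37.5% of the male sum. Ccnd1 averaged 0.849 FPKM at E3.5 and 2.61 FPKM at E4.5, where 7 of 23 cells at each stage (30.4%, 95% exact interval 13.2 to 52.9%) reached 1 FPKM. At E5.5 all 20 female and all 63 male cells did, with means of 103.8 and 139.5 FPKM. In the order of the states by the mean of both cultures, 2i (114.4 FPKM) came before serum (90.5), Epi (72.8) and motor neuron (38.9). The cultures of 2i and serum overlapped, as did those of serum and Epi, while both motor neuron cultures lay below both Epi cultures.

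The test called none of the Ccnd1 changes. Motor neuron against serum gave -1.21 (SE 0.53, limma adjusted p = 0.118), made of 0.04 in the female line and -2.47 in the male line. The change passed under upper-quartile scaling, at -2.33 with an adjusted p of 0.0395. The adjusted p ranged from 0.0182 to 0.465 over 17 alternatives, of which 3 passed. Ccnd1 lies at chr7:144929931-144939925 (GRCm38, minus strand) and overlaps LTO1. Standard SMART-seq2 reads carry no strand, so reads of the overlap cannot be assigned by strand. LTO1 averaged 55.8 FPKM in male motor neuron cells and between 8.70 and 35.03 FPKM in the other groups.

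Ccnd2 differed widely between groups. It averaged 0.111 (female) and 0.758 FPKM (male) in 2i cells, and 6.30 ± 15.1 and 4.89 ± 12.1 FPKM in serum. The Epi cultures differed, with 3.07 ± 15.2 FPKM (female) against 34.1 ± 28.7 FPKM (male). Motor neuron cells averaged 102.4 ± 216.4 (female) and 18.5 ± 34.5 FPKM (male). Their medians were 29.97 and 4.98 FPKM, and 1 female cell stood at 1165 FPKM. In female Epi, 1 cell at 127.3 FPKM held 52.5% of the sum. The share of cells at 1 FPKM or more was 5.00% (95% exact interval 1.04 to 13.9%) in female 2i, 18.99% (11.03 to 29.4%) in female Epi and 96.8% (89 to 99.6%) in male Epi. In motor neuron cells it was 84.6% (female) and 68.6% (male). The 7-passage Epi culture, of the female line, stood between both other Epi cultures at 10.9 FPKM and 65.9% of cells. At E3.5 and E4.5, 1 of 23 cells reached 1 FPKM, and at E5.5 all 20 female and 59 of 63 male cells did, at means of 7.11 and 9.26 FPKM.

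In the order of states, motor neuron (60.5 FPKM), Epi (18.6) and serum (5.59) overlapped in turn, and 2i (0.435) lay below both serum cultures. None of these differences passed the test. Serum against 2i gave 2.23 (SE 1.14, limma adjusted p = 0.639), with 2.72 and 1.74 in the female and male lines. Motor neuron against serum gave 2.78 (SE 1.14, adjusted p = 0.102), with 3.82 and 1.73. The adjusted p ranged from 0.0395 to 0.459 over 17 alternatives, of which 2 passed. Ccnd2 lies at chr6:127125162-127152193 (GRCm38, minus strand). It overlaps Gm43126, which has no row in the tables, and 9330179D12Rik, which averaged at most 0.435 FPKM.

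Within single cells the D-type cyclins took different shares of their summed FPKM. Ccnd3 was the highest of the 3 in 59 of 60 female and 50 of 51 male 2i cells. In serum, Ccnd1 was the highest in 11 of 68 female (16.2%, 95% exact interval 8.36 to 27.1%) and 14 of 52 male cells (26.9%, 15.6 to 41.02%). Ccnd2 was the highest in 7 of 39 female motor neuron cells (17.9%, 7.54 to 33.5%) and in none of 35 male ones (upper bound 10.0%). It made up 30.9% of the summed D-type cyclin FPKM in the former and 6.47% in the latter. All 23 E3.5 cells and 22 of 23 E4.5 cells had Ccnd3 highest, and the remaining E4.5 cell had no D-type cyclin at 1 FPKM.

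**Figure D2:**
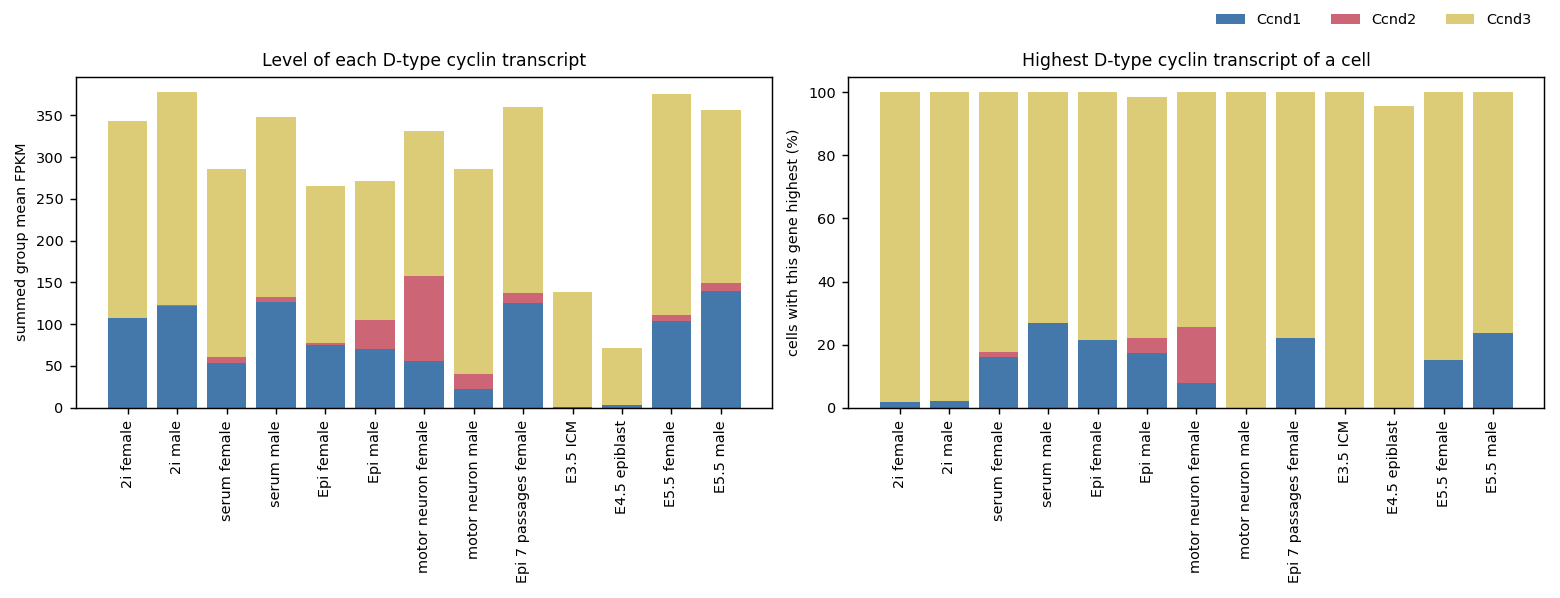
D-type cyclin transcripts in the 13 groups. The left plot stacks the group mean FPKM of each gene, and the right plot stacks the percentage of cells in which it is the highest of the 3; the gap to 100% is cells with none at 1 FPKM. Ccnd3 leads everywhere, and Ccnd2 takes 30.9% of the sum in female motor neuron cells.

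Ccnd1 and Ccnd2 were found together in some states and apart in others. In female 2i, 3 of 60 cells had both at 1 FPKM or more and 57 had only Ccnd1. In male Epi, 60 of 63 cells had both, against 14 of 79 in female Epi. Among female motor neuron cells, 21 of 39 had both, 6 only Ccnd1 and 12 only Ccnd2. Of the male ones, 17 of 35 had both, 4 only Ccnd1, 7 only Ccnd2 and 7 neither.

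Ccne1 fell in motor neuron cells against serum and was highest in serum among the 4 states of the main table. It averaged 205.6 ± 117.99 (female) and 291.9 ± 160.9 FPKM (male) in serum, and 84.3 ± 105.5 and 30.6 ± 29.6 FPKM in motor neuron cells. The motor neuron cultures both lay below both serum cultures. The log2 change was -2.25 (SE 0.56, limma adjusted p = 0.0245), a 4.74-fold lower level, with -1.28 in the female line and -3.21 in the male line. The share of cells at 1 FPKM or more was 100% in serum, and in motor neuron cells it was 87.2% (95% exact interval 72.6 to 95.7%, female) and 71.4% (53.7 to 85.4%, male). The call held in 10 of 17 alternatives, and the adjusted p ranged from 0.00775 to 0.126. It was kept with each cell rescaled to the same sum (-2.73, adjusted p = 0.0237) and with upper-quartile scaling (-3.37, adjusted p = 0.0237).

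In 2i, Ccne1 averaged 87.7 ± 36.2 (female) and 83.1 ± 37.7 FPKM (male), below both serum cultures. Serum against 2i gave a log2 change of 1.51 (SE 0.56), with 1.22 and 1.80 in the lines. Its unadjusted p was 0.0334 and the limma adjusted p 0.423, so it did not pass. Epi cells averaged 185.6 ± 107.0 (female) and 82.1 ± 52.1 FPKM (male). Their change against serum was -0.98 (SE 0.56, adjusted p = 0.727), with -0.15 and -1.82 in the lines. The order of states was serum (248.8 FPKM), Epi (133.9), 2i (85.4) and motor neuron (57.4), and only serum stood apart from the next state in it. At E3.5 and E4.5 Ccne1 averaged 13.7 ± 18.2 and 11.1 ± 8.97 FPKM. At E5.5 it averaged 212.8 ± 32 (female) and 228.9 ± 62.6 FPKM (male), and the lowest E5.5 cell stood at 128.9 FPKM. The 7-passage Epi culture averaged 134.5 FPKM.

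The promoter of Ccne1 (chr7:38097984-38107534, GRCm38, minus strand) is shown because this gene passed the test. The stretch printed holds 3 copies of the GC box GGGCGG, the site of Sp1-type factors, in capitals.
Ccne1 promoter, chr7:38107531-38107610, minus strand: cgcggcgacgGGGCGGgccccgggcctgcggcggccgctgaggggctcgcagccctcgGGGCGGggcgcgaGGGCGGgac
It runs from 120 to 41 bases before the start site. Of 32851 RefSeq promoter windows of the same length, from 250 bases before to 50 after a start, 35.7% held a GC box on either strand. None of the motif matches in the printed sequences overlaps another. A match is a description of the letters and no evidence of binding.

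Ccne2, the other E-type cyclin, was lower than Ccne1 in all groups but male motor neuron cells, and none of its changes passed. It averaged 16.04 ± 17.6 and 19.6 ± 18.98 FPKM in female and male 2i, and 14.9 ± 20.9 and 23.4 ± 30.5 FPKM in serum. Epi cells stood at 11.2 ± 13.7 (female) and 33.1 ± 32.4 FPKM (male), and motor neuron cells at 29.2 ± 42.6 and 34.01 ± 56.99 FPKM. The cultures of neighbouring states overlapped throughout the order motor neuron, Epi, serum and 2i. Motor neuron against serum gave 0.72 (SE 0.50, limma adjusted p = 0.291), and -0.38 with upper-quartile scaling. Ccne2 averaged 1.01 FPKM at E3.5 and 1.88 FPKM at E4.5, against 32.9 (female) and 33.6 FPKM (male) at E5.5. Ccne2 lies at chr4:11191351-11204779 (GRCm38, plus strand) and overlaps Ints8, which averaged 9.44 to 46.7 FPKM.

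The ratio of Ccne1 to Ccne2 differed between states. Mean Ccne1 was 13.8 and 12.5 times mean Ccne2 in female and male serum cells, and 2.89 and 0.899 times in female and male motor neuron cells. All 68 female and all 52 male serum cells had more Ccne1 than Ccne2. In motor neuron cells this held for 30 of 39 female (76.9%, 95% exact interval 60.7 to 88.9%) and 18 of 35 male cells (51.4%, 33.99 to 68.6%). In male Epi it held for 54 of 63 cells, and in female Epi for all 79. The ratio was not tested.

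Cdkn1a was the most abundant of the 3 inhibitors in all cultures, and it rose in motor neuron cells on the deposited scale. It averaged 880.1 ± 990.0 (female) and 638.7 ± 634.5 FPKM (male) in motor neuron cells. Serum cells had 196.6 ± 180.4 and 144.3 ± 245.1 FPKM. The change was 2.15 on the log2 scale (SE 0.47, limma adjusted p = 0.0161), a 4.43-fold higher level, and it was 2.16 in the female line and 2.14 in the male line. The call was lost under both other scalings: with each cell rescaled to the same sum the change was 1.56 (adjusted p = 0.0512), and with upper-quartile scaling it was 0.99 (adjusted p = 0.292). The adjusted p ranged from 0.00849 to 0.292 over 17 alternatives, of which 11 passed. The median change of all genes tested was 0.71 on the deposited scale, 0.14 with rescaled cells and -0.27 with upper-quartile scaling. The Cdkn1a change lay above that median under all 3 scalings. Many genes do so by the definition of a median, and this position was not tested.

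Cdkn1a in 2i averaged 389.7 ± 113.8 (female) and 597.1 ± 191.9 FPKM (male), above both serum cultures. Serum against 2i gave -1.51 (SE 0.47), with -0.98 and -2.04 in the lines. The unadjusted p was 0.0164 and the limma adjusted p 0.328, so it did not pass. Cells of 2i ran from 176.7 to 771.6 FPKM in females and from 180.6 to 1017 FPKM in males, and serum cells from 0.275 to 800.0 FPKM and from 0 to 1046 FPKM. The median in male serum cells was 53.1 FPKM, against a mean of 144.3. Epi cells averaged 214.8 ± 248.9 (female) and 84.7 ± 149.8 FPKM (male). The order of states was motor neuron (759.4 FPKM), 2i (493.4), serum (170.5) and Epi (149.8), and only serum and Epi overlapped.

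All embryo groups had lower mean Cdkn1a than all cultures, in tables normalised apart from theirs. Its mean was 25.3 ± 41.96 FPKM at E3.5, 12.5 ± 19.2 at E4.5, and 9.61 ± 14.9 (female) and 16.6 ± 54.1 FPKM (male) at E5.5. The share of cells at 1 FPKM or more was 56.5% at both blastocyst stages, and 70% and 66.7% in female and male E5.5 cells. In the 8 cultures of the main table it lay between 77.8% (male Epi) and 100%. A single E5.5 male cell at 420.7 FPKM held 40.2% of the male Cdkn1a sum. These differences between tables carry no test.

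Cdkn1a lies at chr17:29090976-29100727 (GRCm38, plus strand). It overlaps AC167363.2, which has no row in the tables. Its promoter is shown because Cdkn1a is a target of p53 and its level went with p53 targets between cells of the 8 cultures. Capitals mark a p53 full site, searched by name with at most 1 mismatch in 20 letters.
Cdkn1a promoter, chr17:29090908-29090967, plus strand: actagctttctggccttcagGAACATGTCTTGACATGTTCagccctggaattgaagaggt
This stretch runs from 71 to 12 bases before 1 of the RefSeq start sites of the gene. Such a site was found in 29 of the 32851 promoter windows (0.0883%).

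Between cells of a culture, Cdkn1a went with the mean log2(FPKM + 1) of 14 genes listed as p53 and its targets. That list leaves out Cdkn1a. Spearman's rank correlation was positive in all 8 cultures, from 0.27 in 51 male 2i cells to 0.77 in 52 male serum cells. Motor neuron cells had 0.61 (39 female) and 0.76 (35 male). The number of genes detected in a cell went with Cdkn1a less, with rank correlations between -0.18 and 0.21. In the embryo groups the correlation with the p53 list was 0.63 (E3.5) and 0.61 (E4.5). It was -0.20 in 20 female and 0.29 in 63 male E5.5 cells, where genes detected gave -0.31 and 0.37. Cells of a culture share its preparation and the FPKM scaling, and these correlations are given as descriptions.

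Cdkn1b rose in motor neuron cells from a low level, and the call was lost under both other scalings. It averaged 9.95 ± 9.99 (female) and 18.04 ± 19.95 FPKM (male) there, against 3.09 ± 3.23 and 4.36 ± 4.02 FPKM in serum. The change was 1.62 (SE 0.48, limma adjusted p = 0.0421), a 3.08-fold higher level, with 1.42 and 1.83 in the lines. It was 0.98 with rescaled cells (adjusted p = 0.19) and 0.60 with upper-quartile scaling (adjusted p = 0.249). The Cdkn1b change lay above the median change of all genes under all 3 scalings, a position that was likewise not tested. The adjusted p ranged from 0.0125 to 0.249 over 17 alternatives, of which 7 passed. The call was also lost with only the cells of lower title numbers, and was kept with those of higher title numbers. In male motor neuron cells the median was 8.067 FPKM at lower and 25.15 FPKM at higher title numbers. In the female culture the cells were uneven, with 11 of 39 listed at 0, while none of 35 male cells was. The other means were 3.74 and 5.63 FPKM in female and male 2i, 5.08 and 12.3 in Epi, 5.93 in the 7-passage Epi culture, 2.82 at E3.5, 4.32 at E4.5, and 9.00 and 11.6 FPKM at E5.5. The order of states was motor neuron (13.99 FPKM), Epi (8.67), 2i (4.69) and serum (3.72), and all neighbours overlapped.

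The promoter of Cdkn1b (chr6:134920401-134925513, GRCm38, plus strand) is shown as the third that passed the test, with a GC box GGGCGG and a CCAAT box, the site of NF-Y, in capitals.
Cdkn1b promoter, chr6:134920321-134920380, plus strand: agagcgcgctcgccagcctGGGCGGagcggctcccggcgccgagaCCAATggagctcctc
It runs from 80 to 21 bases before the start site, and 37.4% of the promoter windows held CCAAT on either strand.

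Cdkn2a had the lowest mean of the 8 in most groups. It averaged 0.960 and 1.60 FPKM in female and male 2i, 3.28 and 0.541 in serum, 2.68 and 0.196 in Epi, and 8.17 and 3.57 in motor neuron cells. The share of cells at 1 FPKM or more was highest in female motor neuron cells, at 41.03% (95% exact interval 25.6 to 57.9%), and 14.3% (4.81 to 30.3%) in male ones. In male Epi it was 1 of 63 cells. Both motor neuron cultures lay above both serum cultures, but the change of 1.33 (SE 0.74) had a limma adjusted p of 0.199. A few cells carried these means: the highest cell held 49.7% of the sum in female serum, 56.2% in male motor neuron and 96.7% in male Epi cells.

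In E3.5 ICM the Cdkn2a mean of 11.1 FPKM came from 1 cell at 251.6 FPKM, which held 99.01% of the sum. That cell is the one with the FPKM sum of 7897578. The other 22 cells averaged 0.114 FPKM. At E4.5 Cdkn2a averaged 0.0513 FPKM, and 1 of 23 cells reached 1 FPKM. At E5.5 the means were 0.437 (female) and 0.237 FPKM (male). The gene (chr4:89274471-89294653, GRCm38, minus strand) has separate start sites for p19ARF and p16, and a value per gene does not tell them apart. The upstream start is shown because it holds an E2F motif, in capitals.
Cdkn2a promoter, chr4:89294685-89294744, minus strand: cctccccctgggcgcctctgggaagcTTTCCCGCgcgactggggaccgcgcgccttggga
It runs up to 66 bases before that start. Any of the E2F motifs searched (TTTCCCGC, TTTCGCGC and TTTGGCGC, both strands) was in 1.85% of the promoter windows.

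**Figure D3:**
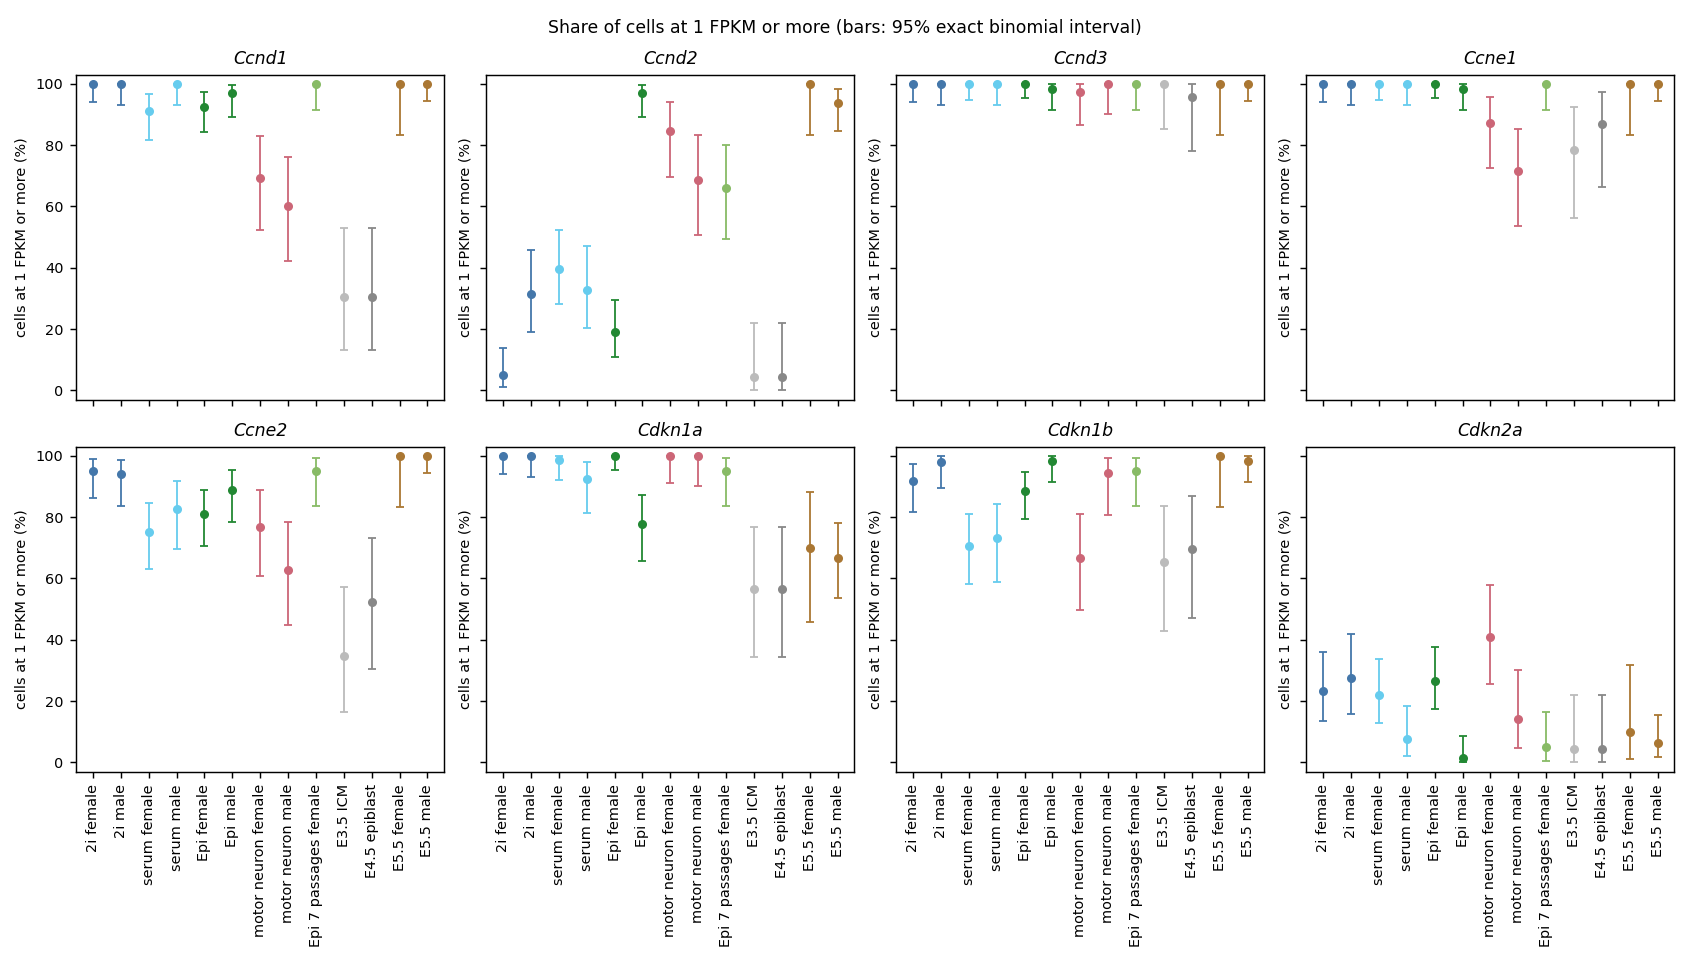
Share of cells at 1 FPKM or more for each gene in the 13 groups. Points are percentages and bars are 95% exact binomial intervals. Ccnd3 stays near 100%, Ccnd2 runs from 5.00% in female 2i to 96.8% in male Epi among the main cultures, and Cdkn2a peaks at 41.03% in female motor neuron cells.

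Across the table, motor neuron against serum was the comparison with many calls. Of 15504 genes, limma called 32.8% (log2 change of 1 or more in size, adjusted p below 0.05), with 30.1% higher and 2.7% lower. Of the 8 G1 genes, 2 were called higher (Cdkn1a and Cdkn1b) and 1 lower (Ccne1), so the share called, 3 of 8, was near that of all genes. Upper-quartile scaling moved the calls of all genes from 91.8% higher to 44.3% higher, and there the G1 genes called were Ccnd1, Ccnd3 and Ccne1, all lower. With each cell rescaled to the same sum, 69.1% of the calls were higher and Ccne1 alone of the 8 was called. Leaving out the female serum, the male serum or the male motor neuron culture left none of the 8 called. With either 2i culture left out, only Cdkn1a was called.

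**Figure D4:**
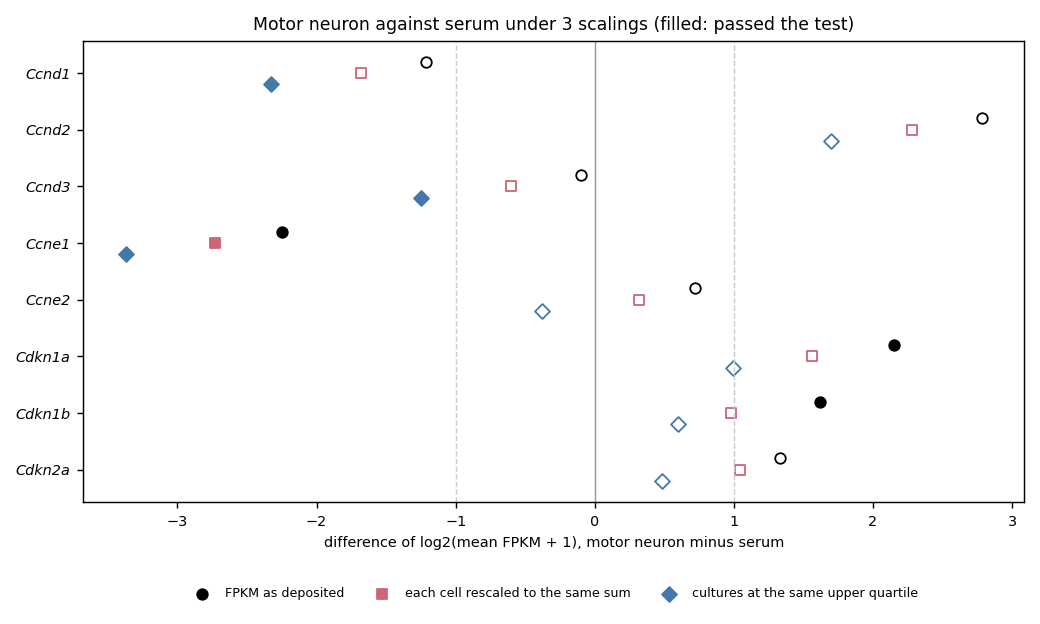
Difference of log2(mean FPKM + 1) between motor neuron and serum for the 8 genes under 3 scalings. Filled symbols passed the test, open ones did not, and dashed lines mark a log2 change of 1 in either direction. Ccne1 passes under all 3 scalings, and Cdkn1a and Cdkn1b only on the deposited scale.

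In serum against 2i, limma called 0 of the 8, and 0.0193% of all genes (3 of 15504). At an unadjusted p under 0.05, 2 of the 8 (Ccne1 and Cdkn1a) and 1549 of all genes stood out. In Epi against serum it called 0 of the 8 and 0.0387% of all genes (6 of 15504), and 0 of the 8 and 1000 of all genes had an unadjusted p under 0.05. With the line as a replicate block the counts over all genes were 0 and 2 in these comparisons. In the 17 alternatives of each, none of the 8 was called.

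**Figure D5:**
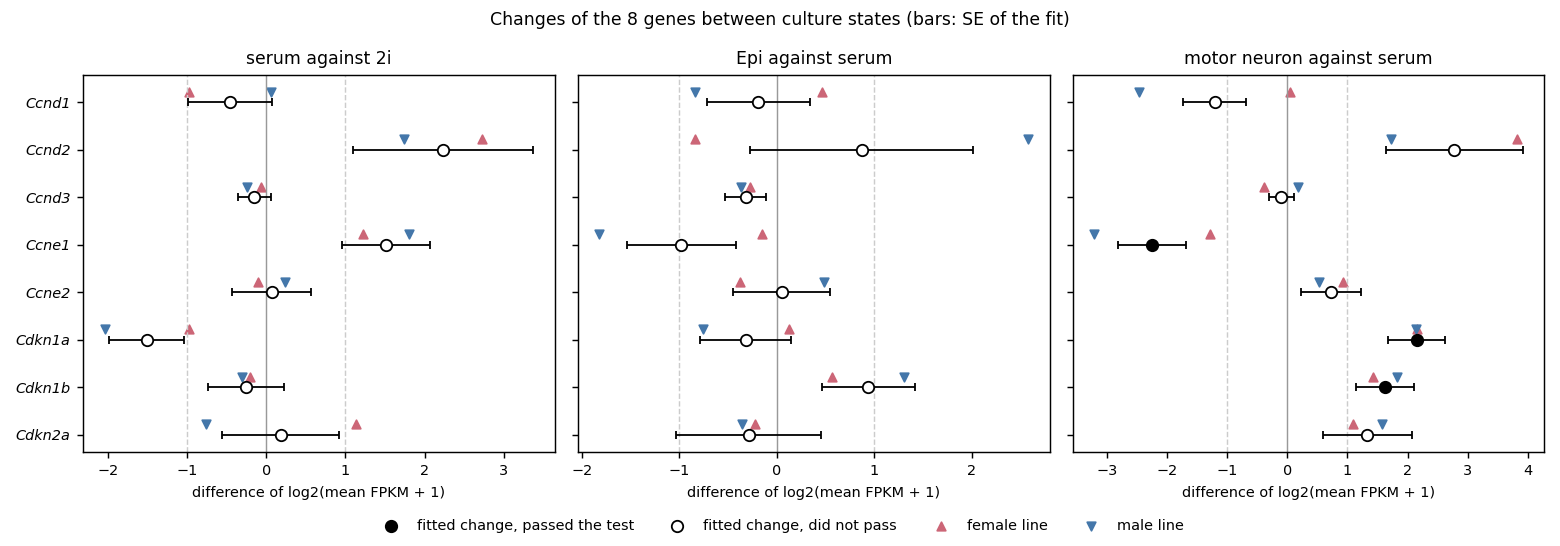
Log2 changes of the 8 genes in the 3 tested comparisons. Circles are fitted changes with their SE (filled where the test was passed), triangles are the changes of each line on its own, and dashed lines mark a log2 change of 1 in either direction. The lines agree closely for Cdkn1a in motor neuron against serum, at 2.16 and 2.14, and point in opposite directions for Ccnd2 in Epi against serum, at -0.84 and 2.58.

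Other genes of the G1 pathway were taken from 8 lists of 70 genes, of which 68 were tested. In motor neuron against serum, 11 were called higher and 4 lower, against 30.1% and 2.7% of all genes. Under upper-quartile scaling 1 was called higher and 28 lower, against 9.43% and 11.9% of all genes. In serum against 2i and in Epi against serum limma called 0 of the 68, with 12 and 1 at an unadjusted p under 0.05. Of the other CDK inhibitors, 2 of 3 tested rose: Cdkn2d (p19INK4d, an inhibitor of CDK4 and CDK6) by 2.82 (SE 0.42, adjusted p = 0.00518) and Cdkn1c (p57) by 2.58 (SE 0.61, adjusted p = 0.0211). Cdkn2d passed under upper-quartile scaling as well, at 1.68 (adjusted p = 0.0181), and Cdkn1c did not, at 1.57 (adjusted p = 0.173). The median change of that list was 2.71, against 0.71 over all genes.

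Of the 13 pocket proteins and E2F factors, 2 were called higher and 1 lower, against 30.1% and 2.7% of all genes. Rb1 and Rbl2, which hold E2F factors in check, rose by 2.53 (SE 0.41, adjusted p = 0.00649) and 1.80 (SE 0.45, adjusted p = 0.0254). Neither passed under upper-quartile scaling (adjusted p = 0.0669 and 0.277). E2f8, a repressive E2F, fell by 1.32 (SE 0.36, adjusted p = 0.031), and by 2.23 under upper-quartile scaling (adjusted p = 0.0188). The kinases and activators of G1 had 0 of 7 called, against 32.8% of all genes. Under upper-quartile scaling 4 of them were called lower (Cdk2, Cdk4, Ccnh and Mnat1), against 11.9% of all genes. Cdk4 stood at 1410 and 1523 FPKM in female and male motor neuron cells and at 1536 and 1450 FPKM in serum. Its change was -0.03 (adjusted p = 0.94), and -1.18 under upper-quartile scaling, where it passed (adjusted p = 0.0196).

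Of the 14 replication genes that E2F controls, 0 were called higher and 2 lower, against 30.1% and 2.7% of all genes. Among the latter, the helicase subunit Mcm2 fell by 1.44 (SE 0.26, adjusted p = 0.00859). The median change of the 14 was -0.64, against 0.71 over all genes, and 11 of 14 were called lower under upper-quartile scaling, against 11.9% of all genes. None of the 5 tested cyclins of S and M phase with Cdk1 was called, with a median of -0.44. Of the 3 Myc factors none was called, against 32.8% of all genes. Under upper-quartile scaling 4 of these 5 genes and 2 of the 3 Myc factors were called lower, against 11.9% of all genes. Of the 9 ubiquitin ligase parts, 1 was called higher, against 30.1% of all genes. This was the F-box protein gene Fbxo4, at 1.73 (SE 0.43, adjusted p = 0.0245), and at 0.86 under upper-quartile scaling (adjusted p = 0.156).

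Of the 14 genes listed as p53 and its targets, 6 were called higher, against 30.1% of all genes, and Trp53 itself lower. Btg2, an antiproliferative gene, rose by 3.07 (SE 0.57, adjusted p = 0.00995) and the receptor Eda2r by 2.44 (SE 0.67, adjusted p = 0.0326). Trp53 fell by 1.63 (SE 0.38, adjusted p = 0.0198). The median change of the list was 1.04, against 0.71 over all genes, and with upper-quartile scaling -0.09, against -0.27, with 0 called higher and Trp53 the gene called lower at -2.78 (adjusted p = 0.021).

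Between cells, E-type cyclins went with replication genes. The rank correlation between Ccne1 and the mean log2(FPKM + 1) of the 14 replication genes was positive in all 8 cultures. It ran from 0.22 (35 male motor neuron cells) to 0.71 (63 male Epi cells). For Ccne2 it ran from 0.28 to 0.73, and was highest in male motor neuron cells. For Cdkn1b it ran from -0.45 (female motor neuron cells) to 0.05. Cdkn1b and Ccnd3 had a rank correlation of -0.65 in the 39 female and -0.27 in the 35 male motor neuron cells. Among motor neuron cells, Ccnd3 had rank correlations of -0.55 (female) and -0.59 (male) with the mean log2(FPKM + 1) of the neuronal markers. Cdkn1b had values of 0.35 and 0.52 with these markers, and -0.13 and -0.54 with the endoderm markers. Cdkn1a had values of 0.00 and 0.63 with the endoderm markers. These values are some of many computed and are descriptions, and cells of a culture share its preparation and the FPKM scaling. Genes detected ran from 4332 to 11893 in female and from 6744 to 12914 in male motor neuron cells. The part of this was not tested.

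The female and the male line were set side by side with 1 culture per arm, so these ratios carry no test. In 2i, 0 of the 7 genes averaging at least 1 FPKM differed by a log2 ratio of 1 or more, against 8.91% of all genes. In serum 2 of 8 did, against 9.21%: Ccnd1 was lower in the female line (-1.22) and Cdkn2a higher (1.47). The Cdkn2a ratio fell as low as 0.43 in the settings tried, and that of Ccnd1 lay between -1.83 and -1.01.

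In Epi, 6 of 8 differed by that much, against 26.4% of all genes. Ccne1 (1.17), Cdkn1a (1.33) and Cdkn2a (1.62) were higher in the female culture. Ccnd2 (-3.11), Ccne2 (-1.48) and Cdkn1b (-1.12) were lower. Over the settings tried, the Ccnd2 ratio lay between -3.98 and -2.62 and the Ccne1 ratio between 1.13 and 1.67, while those of Cdkn1a (0.89 to 2.29), Cdkn1b (-1.37 to -0.69) and Cdkn2a (0.69 to 3.23) came under 1 in size in places. These cultures also differed in Nanog and in the primed markers, 3 of which were lower and 2 higher in the female culture, as given above, and the part of this was not tested.

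In motor neuron cells, 4 of 8 differed, against 31.1% of all genes, and all 4 were higher in the female culture: Ccnd1 (1.29), Ccnd2 (2.41), Ccne1 (1.43) and Cdkn2a (1.01). The female culture was also the one with the lower neuronal marker sum in its median cell, as given above, and the part of this was not tested. Pou5f1, a pluripotency factor, reached 1 FPKM in 43.6% of the female and 5.71% of the male cells. In E5.5 epiblast 0 of 7 differed, against 10.7% of all genes. The largest ratio there was that of Cdkn1a, at -0.73, from means of 9.61 and 16.6 FPKM. The male mean was 10.1 FPKM without the cell at 420.7 FPKM, and the ratio lay between -1.16 and -0.08 over the settings tried.

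From E3.5 to E4.5, 2 of the 7 genes averaging at least 1 FPKM differed by a log2 ratio of 1 or more, against 25.1% of all genes. Ccnd3 was lower at E4.5, at 68.1 against 138.1 FPKM (-1.01, just past the line), and -0.75 with rescaled cells or -0.70 with upper-quartile scaling. The summed trophoblast markers of the median cell were 159.4 FPKM at E4.5 and 38.8 FPKM at E3.5. Among the 23 E4.5 cells, the rank correlation of Ccnd3 with the mean log2(FPKM + 1) of these markers was -0.66. With the pluripotency markers it was 0.56, and at E3.5 the values were 0.10 and -0.18. The part of these markers in the difference was not tested. Cdkn2a was lower by -3.52, which rests on the E3.5 cell described above. Without that cell Cdkn2a averaged below 1 FPKM over both stages, and 1 of the genes was past the ratio, against 20.2% of all genes. Ccnd1 (0.97) and Cdkn1a (-0.96) stood just inside the line. Titles of the blastocyst cells carry leading numbers, which the labels do not explain, and some titles carry a longer suffix. The part of these in the ratios was not tested.

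Some genes had patterns over the 8 cultures close to those of the 8, by Pearson r of log2(mean FPKM + 1) among 8893 genes averaging at least 5 FPKM (8894 for Cdkn2a). These r are the highest of many and are descriptions. Closest to Ccnd1 were Fanca (0.954), Atad5 (0.951) and Gins1 (0.949). Closest to Ccnd2 were Arhgef40 (0.968), Fkbp10 (0.964) and Pitrm1 (0.963), and to Ccnd3 Commd10 (0.978), Zbtb45 (0.958) and Snord82 (0.945). Castor1 (0.976), Rfc4 (0.973) and Ccdc58 (0.972) were closest to Ccne1. Tmem250-ps (0.959), Rbbp8 (0.931) and Cdc40 (0.927) were closest to Ccne2. Cdkn1a went with Plin2 (0.989), Acyp1 (0.979) and Uqcr11 (0.977), and Cdkn1b with Zfp771 (0.996), Dpysl5 (0.995) and Tpra1 (0.992). For Cdkn2a, 1810013L24Rik (0.967) and 1700007K13Rik (0.958) were closest. Among the 8 themselves, the highest r was 0.82 between Ccne2 and Cdkn1b and the lowest -0.79 between Ccne1 and Cdkn1b.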

How the data were processed

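RNA of 617 single cells was measured by SMART-seq2 with Tn5, per the labels' protocols. The authors deposited FPKM values per gene and cell in 4 tables. The submitters' processing notes name STAR 2.4.1, Cufflinks, Cuffnorm 2.2.1 and the build mm10, with no role or order. Tables were normalised separately, and values were tested only within a table. In 356 values the exponent's minus sign was a low line; they were read as small numbers, at most 9.7552e-05 FPKM. All value columns were matched to samples. No cells looked like duplicates (largest r of any pair, 0.931). Positions come from GENCODE M21 (GRCm38) and promoter sequences from RefSeq (GRCm38.p6), which held windows for 5 of the 8 genes (not Ccnd1, Ccnd2 and Ccne2).

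Cells were averaged per culture. The 8 cultures of the main table entered a limma 3.58.1 fit (R 4.3.3, trend = TRUE) on log2(mean FPKM + 1), over 15504 genes averaging at least 1 FPKM, with 1 coefficient per state. A gene was called when its log2 change was 1 or more in size and its Benjamini-Hochberg adjusted p below 0.05. A pseudocount of 1 understates changes of genes near 1 FPKM. Sexes and blastocyst stages had 1 sample per arm and no test. The code was tested on simulated data. A change that did not pass, such as those of Ccne1 and Cdkn1a in serum against 2i, is not shown to be absent. Shares use 1 FPKM and 95% exact (Clopper-Pearson) intervals, limited to counting error. Both lines pair across states, being the same cell lines per the labels, and their female minus male deviations correlated with r of 0.06 to 0.16 between states over 15504 genes.

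All 8 genes are named. Of the other lists, up to 2 called genes with the largest change in each direction are named per comparison; Cdk2, Cdk4, Ccnh and Mnat1 were added after their values were seen, as were the marker genes given as checks. The genes nearest in pattern are the 3 with the highest r. Of the genes these rules name, 2 are not reported here. The genes and lists were chosen with earlier results of these data known. Alternatives were omitting the low-value filter, a pseudocount of 0.1, log2 values averaged over cells, rescaled cells, upper-quartile scaling, lower or higher title numbers, the line as a block, each culture left out, the 7-passage Epi culture, and thresholds of 0.1 and 5 FPKM. Leaving out 1 E3.5 cell was added after seeing the data.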

Additional observations from a re-analysis of the deposited data

Results flagged for a closer look

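In 9 cases the female and the male line moved in opposite directions in a state comparison. Each line has 1 culture per state, so the difference between the lines was not tested.

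For serum against 2i these were Ccnd1 (-0.97 in the female and 0.06 in the male line, as log2 changes), Ccne2 (-0.10 and 0.24) and Cdkn2a (1.13 and -0.76). For Epi against serum they were Ccnd1 (0.46 and -0.84), Ccnd2 (-0.84 and 2.58), Ccne2 (-0.38 and 0.48) and Cdkn1a (0.13 and -0.76). For motor neuron against serum they were Ccnd1 (0.04 and -2.47) and Ccnd3 (-0.38 and 0.18). Ccnd2 in Epi had the widest gap between the lines. With the 7-passage culture in place of the first female Epi culture, the female line mean of Ccnd2 was 10.9 FPKM in place of 3.07.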

How the results depend on the processing

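Under every alternative, none of the 8 genes was called in serum against 2i or in Epi against serum. Of 408 log2 changes under alternatives, 356 kept direction and side of the threshold, 23 lost a call, 6 gained one and 23 changed sign, none of the latter from a called change. The cause was not tested unless the alternative's own construction shows it.

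In motor neuron against serum, the 3 of the 8 called became 1 with no low-value filter and 1 with rescaled cells, and 0 to 3 with single cultures left out, where fewer cultures were fitted. The count stayed at 3 with the line as a replicate block, which changed no call among the 8. Of all genes tested, 32.8% were called there, and 11.7% (no filter, with more genes tested), 20.5% (rescaled), 21.3% (upper-quartile), 34.8% (replicate block) and 10.7 to 35.8% (cultures left out). In serum against 2i the 0.0193% became 0 (pseudocount 0.1), 0.0797% (no filter), 1.44% (log2 values averaged), 0.0458% (upper-quartile), 0.0714% (higher run), 0 (replicate block), 0.738% (7-passage culture) and 0 to 0.329% (cultures left out). In Epi against serum the 0.0387% became 0.0258% (log2 values averaged), 0.0588% (upper-quartile), 0.00653% (lower run), 0.0129% (replicate block), 5.49% (7-passage culture) and 0 to 2.36% (cultures left out).

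Of the genes past a log2 ratio of 1, the 4 between motor neuron sexes became 2 in the lower run. The 0 between E5.5 sexes became 1 with upper-quartile scaling. The 2 between E4.5 and E3.5 became 4 (pseudocount 0.1), 1 (log2 values averaged), 1 (rescaled) and 1 (without the E3.5 cell). Of the pairs of gene and group, 81 had at least 50% of cells at 1 FPKM, 84 at 0.1 FPKM and 69 at 5 FPKM.

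Changes of sign in serum against 2i were Ccne2 -0.49 and Cdkn2a -0.19 (log2 values averaged) and Ccnd3 0.23 and Cdkn2a -0.37 (lower run). With cultures left out, Ccnd1 ran from -1.07 to 0.15, Ccne2 from -0.24 to 0.38 and Cdkn2a from -0.55 to 0.92. In Epi against serum they were Ccnd2 -0.12 (lower run), Ccnd1 0.15, Ccnd3 0.14 and Ccne2 -0.04 (higher run) and Ccnd1 0.19 (7-passage culture). With cultures left out, Ccnd1 ran from -0.80 to 0.42, Ccnd2 from -0.69 to 2.42, Ccne2 from -0.68 to 0.79, Cdkn1a from -0.98 to 0.35 and Cdkn2a from -1.10 to 0.52. In motor neuron against serum they were Ccne2 -0.38 (upper-quartile) and, with cultures left out, Ccnd3 from -0.35 to 0.15. Depth is unknown, and levels near 1 FPKM, as of Cdkn2a, are imprecise.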

Other observations

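Title numbers of the cells fell into a lower and a higher run in 7 of the 8 cultures, which the labels do not explain. Some of the genes differed between the runs. In male serum cells Ccnd2 averaged 14.2 FPKM in the 13 cells of the lower run and 1.78 FPKM in the 39 of the higher one. In female Epi cells Ccnd1 had medians of 37.5 (lower) and 88.8 FPKM (higher), and Ccnd3 averaged 126.9 and 233.2 FPKM. In male Epi cells Ccnd3 averaged 100.7 and 230.9 FPKM. In motor neuron cells Cdkn1b had medians of 2.498 (lower) and 11.66 FPKM (higher) in females, and 8.067 and 25.15 FPKM in males. Ccnd3 went the other way there, with medians of 151.3 and 105.5 FPKM in females and 270.7 and 151.8 FPKM in males. Cdkn1a was alike in the runs of female 2i cells, at 387.9 and 391.5 FPKM, and Ccne1 in those of female Epi cells, at 171.7 and 196.1 FPKM.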
